A study of Caenorhabditis elegans with 12 samples.

Results

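The genes described here are the *C. elegans* neurotransmitter receptors and ion channels whose public names carry the class symbols *acr*, *lgc*, *glr*, *nmr*, *ser*, *dop*, *octr*, *gar*, *mgl*, *gbb*, *twk*, *kvs*, *shl* or *slo* followed by a number. This rule was applied to the gene names of the deposited table and took 151 of its 45627 genes, all of them protein-coding. RNA was sequenced from dissected gonads of *set-2*(*bn129*) hermaphrodites of strain PFR541, kept at 25°C and taken on day 1 of adulthood, in 4 groups of 3 samples. P0 animals were heterozygous, with *set-2*(*bn129*) over the *qC1* balancer, while the F2 fertile, F4 fertile and F4 sterile animals carried *bn129* on both chromosomes. The SET-2 protein, a methyltransferase of histone H3 lysine 4, belongs to the worm SET1/COMPASS complex. Fertile animals had laid live progeny, sterile animals held no visible embryo, and each sample pooled gonad arms of many animals of 1 lineage. The balancer is present in P0 only, so its effect and that of heterozygosity at *set-2* cannot be told apart. The paper states that the balanced strain was moved to 25°C from a lower temperature 1 generation before the experiments. F2 and F4 animals thus had more generations at 25°C than P0 animals, which cannot be told apart from genotype either. F4 fertile and F4 sterile samples were separated by fertility and not by genotype.

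Neurotransmitter receptors fall into ligand-gated channels, in which the receptor is itself a pore, and G protein-coupled receptors, which act through second messengers. Among the first are the acetylcholine receptor subunits (*acr*), the large group of Cys-loop ligand-gated channels (*lgc*), the AMPA/kainate-type glutamate receptor subunits (*glr*) and the NMDA-type subunits (*nmr*). The second kind holds the serotonin and octopamine receptors (*ser*, *octr*), dopamine receptors (*dop*), muscarinic acetylcholine receptors (*gar*), metabotropic glutamate receptors (*mgl*) and GABA-B receptor subunits (*gbb*). Potassium channels set the resting potential or end an action potential, and comprise the TWIK-related leak channels (*twk*), the voltage-gated channels *kvs-1* and *shl-1*, and the large-conductance channels *slo-1* and *slo-2*. These genes are known mainly from neurons and muscle, and the germ line is not an excitable tissue.

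The 12 libraries held between 3456068 and 10335794 counts on genes. *set-2* itself was at 186 to 197 CPM (a gene's count scaled to the size of its library) in P0, 141 to 157 CPM in F2 fertile, 123 to 130 CPM in F4 fertile and 132 to 135 CPM in F4 sterile samples. Germ line and oocyte markers, which define the labelled tissue, summed to between 2898 and 4315 CPM over 10 genes and to between 12209 and 20490 CPM over 9 genes. Marker genes of other cell types were also counted, which does not show whether such cells were present. The 10 neuronal markers summed to between 100 and 190 CPM in F4 sterile samples, against 88.0 to 96.9 CPM in P0 samples, and none of them was at 0 throughout. The 10 body wall muscle markers summed to 178 to 549 CPM in F4 sterile and 166 to 257 CPM in P0 samples, with the defining factor *hlh-1* at 0 in every library. For the intestine (10 markers) the sums were 798 to 4341 CPM in F4 sterile and 2457 to 3122 CPM in P0 samples. F4 sterile replicate 2 had the highest sums of neuronal, muscle and intestinal markers of all libraries, and the part of such cells in the results was not tested.

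Most receptor and channel genes were counted only a few times. Each of the 151 genes had at least 4 counts over the 12 libraries together, with a median of 23. There were 31 genes with fewer than 10 counts and 16 with 100 or more, and those 16 held 53.9% of the 8167 counts. Only 9 genes had 3 or more counts in every library, while 22 never reached 3 counts in any. In what follows a gene is called detected in a group when all 3 samples hold 3 or more counts.

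By this measure P0 gonads had 13 detected genes, F2 fertile gonads 32, F4 fertile gonads 23 and F4 sterile gonads 36. Depth differs between the libraries, and after all were thinned to the total of the shallowest one the numbers were 9, 21, 19 and 27 in the same order. The number was thus lowest in P0 and highest in F4 sterile gonads at either depth. Matching numbers for all genes were not taken, so this order is not shown to be particular to these families. Without F4 sterile replicate 2, a setting added after seeing the data, the number in F4 sterile gonads was also 36. Leaving out a sample cannot lower this number, so it does not show how far that library matters. Single libraries differed widely within a group, and after thinning 37, 70 and 39 genes had 3 or more counts in the F4 sterile replicates 1 to 3, against 26, 18 and 17 in the P0 replicates. The potassium leak channel family *twk* gave the most detected genes in every group, with 6, 10, 8 and 11 of 41 over the groups in order of generation. The largest family, *lgc*, gave only 2, 6, 4 and 5 of 53. For the *acr* family, 1, 7, 3 and 5 of 21 were detected. No gene of *gar*, *nmr*, *kvs* or *shl* was detected in any group, and both *slo* genes were detected in F4 sterile gonads alone.

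**Figure D1:**
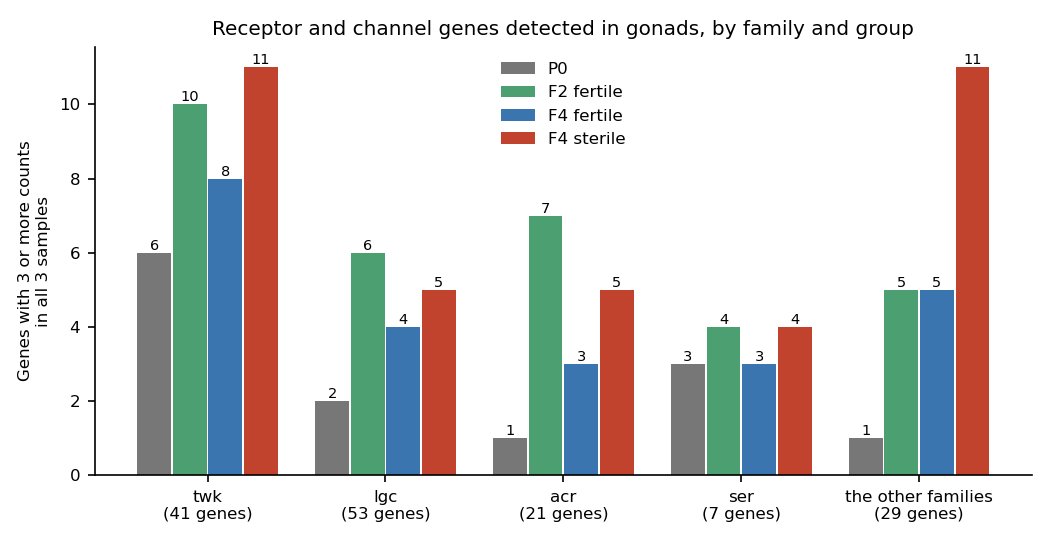
The bars give the number of genes with 3 or more counts in all 3 samples of a group, by gene family, with the number of genes in each family below its name. The *twk* family had 6, 10, 8 and 11 detected genes in P0, in F2 and F4 fertile and in F4 sterile gonads, while the *lgc* family of 53 genes had at most 6.

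Summed over all 151 genes, the level was low throughout. The sums were 85.7, 67.7 and 69.3 CPM in P0, 112, 108 and 88.3 CPM in F2 fertile, 79.2, 104.5 and 81.4 CPM in F4 fertile, and 98.8, 211 and 114 CPM in F4 sterile replicates 1 to 3. Every F4 sterile sample thus lay above every P0 sample, and F4 sterile replicate 2 stood apart from all others. The mean of F4 sterile gonads was 1.90 times that of P0 gonads, and 1.43 times without F4 sterile replicate 2, in which 113 of the 151 genes had their highest CPM of the 3 F4 sterile samples. In these bulk samples, fewer cells of a type and less RNA per cell cannot be told apart.

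The increase was larger for X-linked members. The 49 X-linked genes summed to 23.9, 63.96 and 27.6 CPM in F4 sterile samples, against 16.01, 7.75 and 8.16 CPM in P0 samples, a ratio of means of 3.62. For the 102 autosomal genes the sums were 74.8, 147 and 86.1 CPM in F4 sterile samples, against 69.7, 59.9 and 61.2 CPM in P0 samples, a ratio of 1.61. Genes that were too low to be tested moved like the other low genes of the series. The sum of the 136 untested receptor and channel genes was 2.10 times higher in F4 sterile than in P0 gonads, and that of all 11057 untested protein-coding genes 1.89 times. On the X chromosome the ratios were 2.38 for the 47 untested members and 2.41 for the 1723 untested protein-coding genes, and 1.63 and 1.60 without F4 sterile replicate 2. The untested X-linked members overlapped, with 13.03 CPM in F4 sterile replicate 1 and 14.7 CPM in P0 replicate 1. With F4 sterile replicate 2 left out the ratio was 2.42 for all X-linked members, 1.27 for the autosomal ones, 1.41 for the 136 untested members and 1.29 for all untested protein-coding genes.

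**Figure D2:**
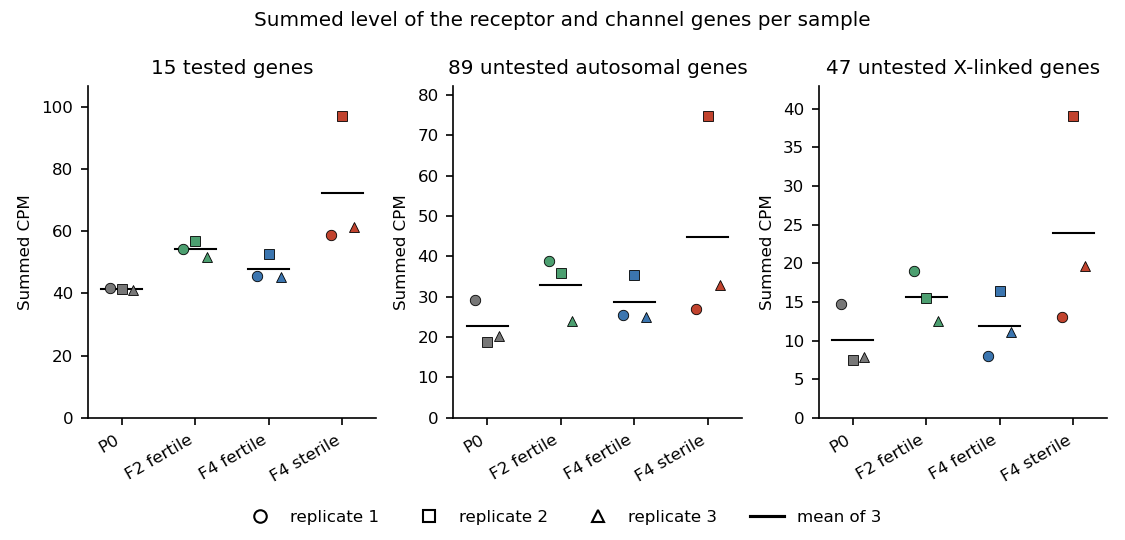
Points give the summed CPM of each sample for the 15 tested genes, the 89 untested autosomal genes and the 47 untested X-linked genes, with replicates 1 to 3 as circle, square and triangle and lines at the group means. F4 sterile replicate 2 lies far above the others in all 3 panels, at 97.0, 74.7 and 39.1 CPM.

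Differential expression was tested with edgeR over the 8746 genes that passed its filter on low counts. Of the 151 members 15 passed, 8 of them *twk*, 4 *ser*, 2 *lgc* and 1 *acr*, and the other 136 were not tested. A gene that is high in one group only can pass through that group, so the counts below describe the tested genes and not the families. A gene is called changed at a Benjamini-Hochberg adjusted p under 0.05 over all genes tested.

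Between F4 sterile and P0 gonads 8 of the 15 tested genes rose, beside 26.4% of all genes tested, and 1 fell, beside 16.8%. Those that rose were the serotonin receptors *ser-1* and *ser-4*, the nicotinic receptor subunit *acr-18*, the amine-gated channel *lgc-40* and the potassium channels *twk-2*, *twk-5*, *twk-7* and *twk-31*. The octopamine receptor *ser-3* fell. Of the rising genes *ser-4*, *twk-7* and *twk-31* lie on chromosome III with *set-2*, the chromosome that P0 animals carried over the *qC1* balancer. The part of the balancer in their values was not tested. The median log2 fold change of the 15 genes was 1.43, against 0.05 over all genes tested and 1.58 over those on the X chromosome, where only *ser-1* and *lgc-40* of the 15 lie. Of all X-linked genes tested 73.8% rose. DESeq2 gave 12 rising genes in place of 8, of 78 members it could adjust, and edgeR without the filter gave 14 of 151. Both sets held all 8, and the genes added are described with the untested members. Since a filter on fewer libraries lets more genes through, 13 to 15 genes rose, of 22 to 30 tested, when F2 fertile replicate 2 or 3, any F4 fertile replicate or F4 sterile replicate 1 or 3 was left out. Without F4 sterile replicate 2, 6 genes rose of 16 tested. The share of all genes that rose was taken for the main fit only, so the counts under these other settings have none beside them.

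**Figure D3:**
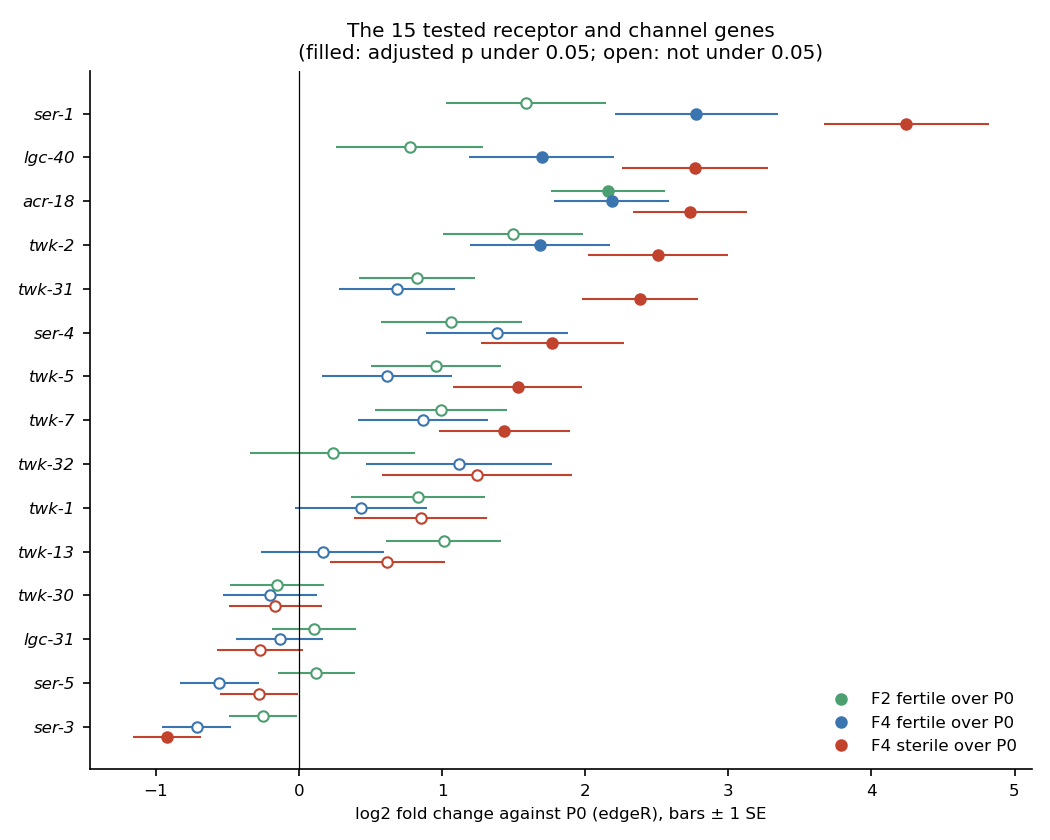
Points give the edgeR log2 fold changes against P0 of the 15 tested genes in F2 fertile, F4 fertile and F4 sterile gonads, with bars of 1 SE, filled where the adjusted p is under 0.05. The F4 sterile values run from -0.92 for *ser-3* to 4.24 for *ser-1*, and 1, 4 and 8 points on the right are filled for F2 fertile, F4 fertile and F4 sterile gonads.

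Of the 15 tested genes the largest change was that of *ser-1*, a serotonin receptor of the Gq-coupled type that acts in egg laying (chromosome X, 16579672 to 16587389 in WS220). It had 2, 1 and 0 counts in P0, 11, 11 and 3 in F2 fertile, 16, 42 and 11 in F4 fertile, and 44, 159 and 20 in F4 sterile samples. Every F4 sterile sample was above every F4 fertile sample in CPM, every F4 fertile sample above every F2 fertile sample, and every F2 fertile sample above every P0 sample. The level was 9.41 ± 6.95 CPM in F4 sterile and 0.193 ± 0.167 CPM in P0 gonads (SD, n = 3 each), with a log2 fold change of 4.24 (SE 0.58, edgeR adjusted p = 9.94e-05). As P0 held 3 counts in all, the fold is poorly bounded, and the ratio of summed counts per library total was 59.0 with an exact 95% interval of 19.9 to 288 for counting error. Without F4 sterile replicate 2, which held 159 of the 223 counts, the log2 fold change was 3.40 and the ratio 31.01 (10.2 to 154), and without P0 replicate 1 the ratio was 88.9 (15.8 to 3526). Between libraries of the same name prefix, *ser-1* was higher by 3.84 and by 2.18 on the log2(CPM + 1) scale in F4 sterile replicates 2 and 3 than in the P0 libraries.

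A second serotonin receptor, *ser-4*, which is of the Gi-coupled kind, rose as well. Its counts were 3, 0 and 1 in P0, 6, 6 and 5 in F2 fertile, 11, 11 and 2 in F4 fertile, and 12, 9 and 11 in F4 sterile samples. All homozygous samples lay above all P0 samples, and the F4 sterile and F4 fertile samples overlapped. The log2 fold change in F4 sterile against P0 gonads was 1.77 (SE 0.50, edgeR adjusted p = 0.0119), and it kept an adjusted p under 0.05 when any 1 library was left out. It was not among the genes tested when only the 6 samples of these groups were fitted.

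*acr-18*, a subunit of the nicotinic acetylcholine receptor family (chromosome V, 15551136 to 15559128 in WS220), was the only member that changed in all 3 comparisons with P0. It had 2, 2 and 5 counts in P0, 31, 33 and 15 in F2 fertile, 27, 45 and 12 in F4 fertile, and 29, 73 and 28 in F4 sterile samples. The 3 P0 samples, at 0.281, 0.596 and 1.20 CPM, lay below all homozygous samples, the lowest of which had 3.03 CPM. Its log2 fold changes over P0 were 2.16 in F2 fertile (SE 0.40, edgeR adjusted p = 0.00474), 2.18 in F4 fertile (SE 0.40, adjusted p = 0.00229) and 2.73 in F4 sterile gonads (SE 0.40, adjusted p = 0.000164). Between F4 fertile and F2 fertile gonads the log2 difference was 0.03 (SE 0.34, edgeR adjusted p = 0.990).

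*lgc-40* encodes a Cys-loop channel gated by choline, acetylcholine and serotonin (chromosome X, 2360089 to 2364813 in WS220). It was counted 7, 0 and 1 times in P0, 6, 10 and 5 times in F2 fertile, 13, 31 and 6 times in F4 fertile, and 27, 70 and 18 times in F4 sterile samples. The lowest F4 sterile sample, at 3.76 CPM, was above the highest of all other samples, at 2.93 CPM. In F4 sterile against P0 gonads the log2 fold change was 2.77 (SE 0.51, edgeR adjusted p = 0.000862). P0 replicate 1 held 7 of the 8 P0 counts, and without it the value was 3.56.

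Potassium channels of the *twk* family made up 4 of the 8 genes that rose. *twk-31* had 8, 4 and 5 counts in P0, 17, 21 and 8 in F2 fertile, 11, 25 and 7 in F4 fertile, and 27, 113 and 27 in F4 sterile samples. Its P0 values were alike, at 1.12 to 1.20 CPM, and all F4 sterile samples exceeded all others, from 4.14 CPM in replicate 1 to 12.3 CPM in replicate 2. In F4 sterile against P0 gonads the log2 fold change was 2.39 (SE 0.41, edgeR adjusted p = 0.000477), and 1.72 without F4 sterile replicate 2. For *twk-2* the counts were 5, 2 and 3 in P0, 14, 27 and 9 in F2 fertile, 6, 44 and 13 in F4 fertile, and 21, 73 and 23 in F4 sterile samples. Again no homozygous sample overlapped with P0, and the log2 fold change in F4 sterile gonads was 2.51 (SE 0.49, edgeR adjusted p = 0.00126).

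*twk-5* and *twk-7*, also leak channels of this family, changed less, and their calls rested on single libraries. *twk-5* had 22, 3 and 4 counts in P0 and 29, 64 and 28 in F4 sterile samples, with a log2 fold change of 1.53 (SE 0.45, edgeR adjusted p = 0.0149). P0 replicate 1 had a higher level of *twk-5* than the other P0 samples, 3.09 CPM against 0.895 and 0.959 CPM, and without it the log2 fold change was 2.20. The edgeR adjusted p was 0.0526 without F4 sterile replicate 2, 0.0650 without P0 replicate 2 and 0.0723 without P0 replicate 3. *twk-7* had 5, 5 and 6 counts in P0 and 24, 41 and 13 in F4 sterile samples, with a log2 fold change of 1.43 (SE 0.46, edgeR adjusted p = 0.0218). For *twk-7* the adjusted p was 0.0729 without F4 sterile replicate 2, 0.127 without P0 replicate 1 and 0.0503 without P0 replicate 3. In both genes the F4 sterile samples still lay above the P0 samples without overlap.

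**Figure D4:**
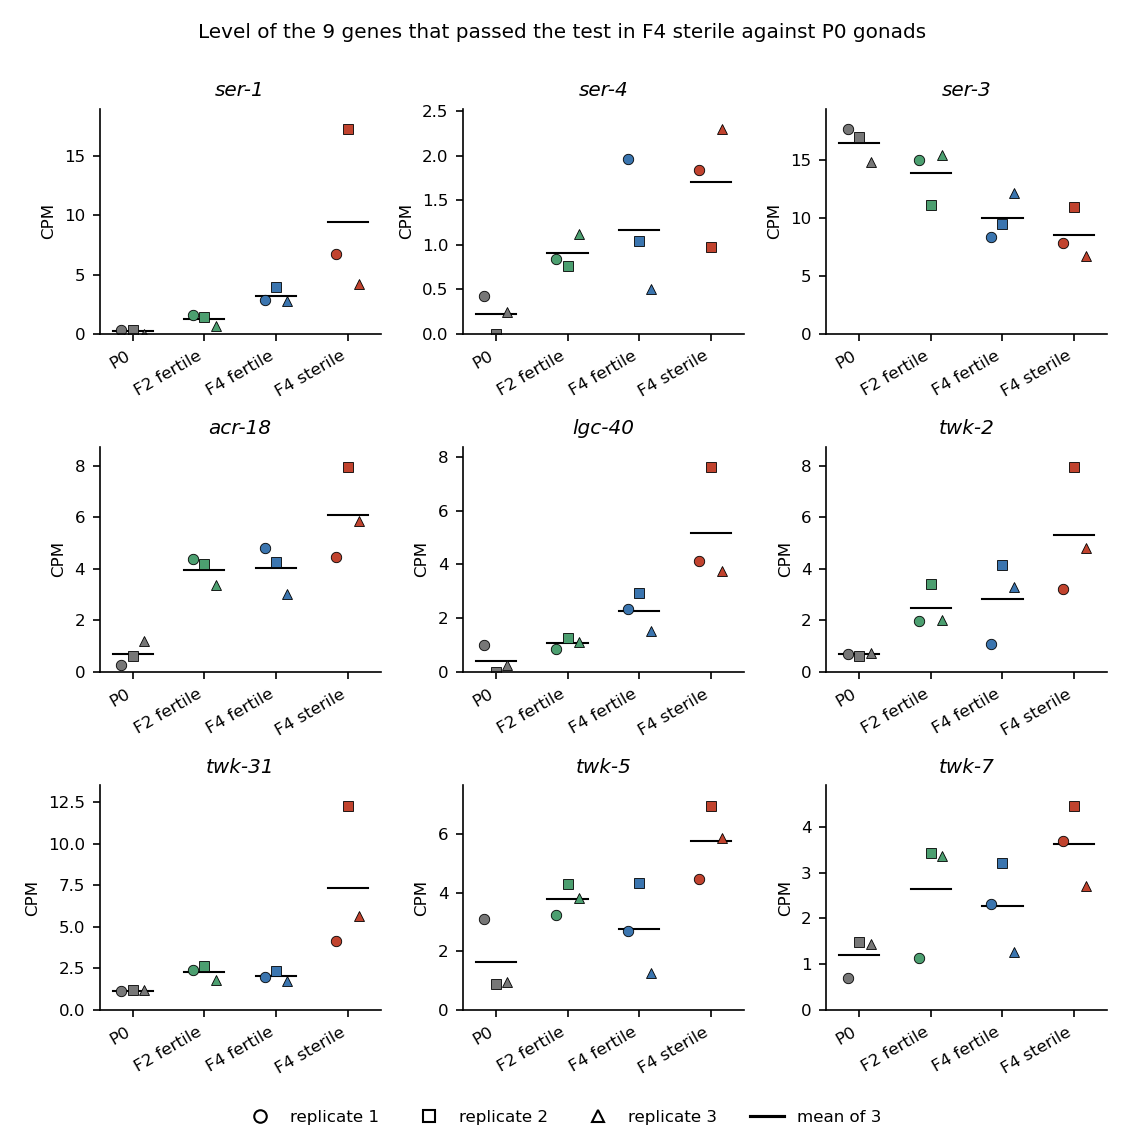
Each panel plots the CPM of 1 of the 9 genes that passed the test between F4 sterile and P0 gonads, by sample, with replicates 1 to 3 as circle, square and triangle and lines at the group means. The 8 rising genes show no overlap between F4 sterile and P0 samples, and *ser-3* falls to a mean of 8.50 CPM in F4 sterile, against 16.5 CPM in P0 gonads.

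Over all samples the highest mean levels were those of *ser-3* with 12.2 CPM, *ser-5* with 5.39 CPM, *lgc-31* with 4.81 CPM, *twk-30* with 4.06 CPM and *acr-18* with 3.69 CPM. Per kilobase of exon, *ser-3* had a mean level of 7.58 CPM in P0 gonads, *ser-5* 3.72, *lgc-31* 2.41 and *twk-30* 2.35, whereas *acr-18* had 0.429 and *ser-1* 0.0872. *ser-3*, a receptor for octopamine, had 126, 57 and 62 counts in P0, 107, 88 and 69 in F2 fertile, 47, 101 and 48 in F4 fertile, and 51, 101 and 32 in F4 sterile samples. All F4 sterile and all F4 fertile samples were below all P0 samples in CPM. The log2 fold change was -0.92 in F4 sterile (SE 0.24, edgeR adjusted p = 0.00759) and -0.71 in F4 fertile gonads (SE 0.24, adjusted p = 0.0501), against P0. With DESeq2 the F4 fertile difference passed, at an adjusted p of 0.0234.

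Position sets these genes apart, a point that was looked at after their values were known. *ser-3* lies wholly inside *teg-4*, a splicing factor gene read from the opposite strand, *ser-5* inside T19A6.1 and *twk-30* inside *phip-1*, both also on the opposite strand. No other member lies inside a gene that passed the filter. In the WBcel235 annotation none of the 3 shares an exon base with its enclosing gene. Total counts had a median of 392 over these 3 genes, against 18 over the 135 members that overlap no tested gene. The library kit that the labels name does not mark strand, so reads of a nested gene and unspliced reads of the gene around it cannot be told apart, and the levels of *ser-3*, *ser-5* and *twk-30* are uncertain for that reason. Reads on no gene made up 12.8, 14.4 and 13.6% in P0 and 10.5, 8.89 and 8.23% in F4 sterile replicates 1 to 3, without overlap. The part of this difference in the values of the nested genes was not tested. *ser-1*, *ser-4*, *acr-18*, *lgc-40*, *twk-2*, *twk-5*, *twk-7* and *twk-31* overlap no tested gene.

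Counts on the enclosing genes changed little, but they do not measure unspliced reads, whose part in the values of the nested genes was not tested. *teg-4* averaged 333 ± 3.00 CPM in F4 sterile and 360 ± 12.5 CPM in P0 gonads (SD, n = 3 each), a log2 fold change of -0.11 (SE 0.09, edgeR adjusted p = 0.312). Counts of *ser-3* amounted to 2.34, 3.33 and 2.00% of those of *teg-4* in F4 sterile samples, against 5.09, 4.56 and 4.12% in P0 samples, with no overlap. *ser-5*, a serotonin receptor, had counts of 26, 42 and 30 in F4 sterile and 38, 22 and 26 in P0 samples, a log2 fold change of -0.28 (SE 0.27, edgeR adjusted p = 0.440). The *twk-30* counts were 31, 34 and 16 in F4 sterile and 32, 11 and 23 in P0 samples, with -0.17 (SE 0.33, edgeR adjusted p = 0.719). *lgc-31*, a Cys-loop channel that shares 8 bases with the ribosomal protein gene *rpl-38*, had 22, 44 and 20 counts in F4 sterile and 24, 17 and 29 in P0 samples, with -0.27 (SE 0.30, edgeR adjusted p = 0.498). In these 3 genes the F4 sterile and P0 samples overlapped.

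**Figure D5:**
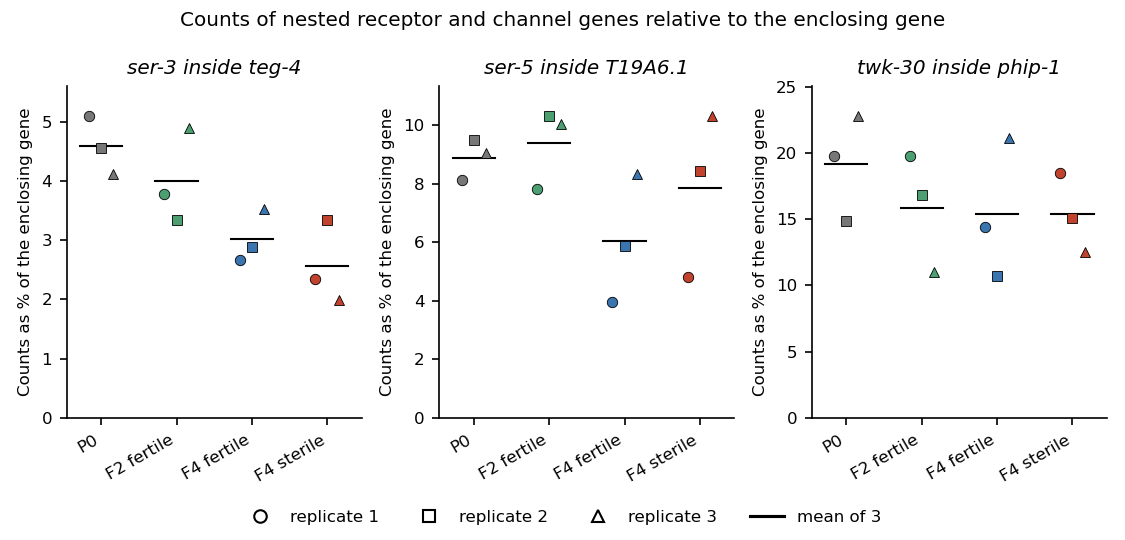
Points give the counts of *ser-3*, *ser-5* and *twk-30* in percent of the counts of the gene each lies in, by sample, with replicates 1 to 3 as circle, square and triangle and lines at the group means. For *ser-3* the F4 sterile samples, at 2.00 to 3.33%, lie below the P0 samples, at 4.12 to 5.09%, while the other panels overlap.

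Of the tested genes not yet described, *twk-32* gave a log2 fold change of 1.24 (SE 0.66, edgeR adjusted p = 0.149) in F4 sterile against P0 gonads, *twk-1* one of 0.85 (SE 0.46, adjusted p = 0.157) and *twk-13* one of 0.62 (SE 0.40, adjusted p = 0.236). *twk-32* was counted 11, 12 and 11 times in F4 sterile and 0, 5 and 2 times in P0 samples. Its edgeR adjusted p was 0.0485 without P0 replicate 2, the P0 library with 5 counts, and its log2 fold change was 1.96 there, against 0.61 without P0 replicate 1.

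In the F2, the earliest homozygous gonads sequenced, *acr-18* alone rose over P0 (1 of 15 tested, beside 7.6% of all genes), and 0 members fell (beside 1.33%). At an unadjusted p under 0.05, 5 further tested members were higher in F2 fertile gonads (*ser-1*, *ser-4*, *twk-2*, *twk-7* and *twk-13*) and 0 were lower, and DESeq2 called 0 of the 20 members it could adjust lower. *twk-2* had a log2 fold change of 1.497 in F2 fertile against P0 gonads (SE 0.49, edgeR adjusted p = 0.0761), and with the replicate number as a block it was 1.38 with an adjusted p of 0.0416. For *ser-1* it was 1.59 (SE 0.56, edgeR adjusted p = 0.0989). Beside *acr-18*, *twk-2* was called without F4 fertile replicate 1 and *ser-1* without F4 sterile replicate 2, which made 2 members each time.

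Between F4 fertile and P0 gonads 4 tested members rose, beside 13.7% of all genes, and 0 fell by edgeR, beside 7.42%. They were *acr-18*, *ser-1* with a log2 fold change of 2.78 (SE 0.57, edgeR adjusted p = 0.00460), *lgc-40* with 1.70 (SE 0.51, adjusted p = 0.0304) and *twk-2* with 1.68 (SE 0.49, adjusted p = 0.0266). At an unadjusted p under 0.05, *ser-3* was the 1 lower member, and DESeq2 called it. The calls of *lgc-40* and *twk-2* depended on single libraries. For *lgc-40* the adjusted p was 0.0697, 0.123, 0.0874 and 0.115 without F4 fertile replicate 1, F4 fertile replicate 2, P0 replicate 2 and P0 replicate 3, and its log2 fold change was 2.53 without P0 replicate 1. For *twk-2* the adjusted p was between 0.0543 and 0.144 without F4 fertile replicate 2 or 3 or any P0 replicate, and the lowest log2 fold change, 1.26, was that without F4 fertile replicate 2. Without P0 replicate 2, P0 replicate 3 or F4 fertile replicate 2, 2 members rose in place of 4. *ser-3* was called lower without F2 fertile replicate 3, F4 fertile replicate 3 or any 1 F4 sterile replicate, which made 1 member in place of 0. *ser-4* passed with the replicate number as a block, with a log2 fold change of 1.48 and an edgeR adjusted p of 0.0481, against 1.39 and 0.0628 without it.

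No member changed between F4 fertile and F2 fertile gonads. edgeR called 0 of 15 higher, beside 0.0114% of all genes, and 0 lower, beside 0%, and at an unadjusted p under 0.05 there were 1 higher, *ser-1*, and 2 lower, *ser-5* and *twk-13*. Without the filter edgeR also called 0 of 151 in each direction, and DESeq2 gave no member an adjusted p in this comparison.

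Between the F4 groups, which share generation and genotype, *twk-31* was the 1 member that rose in sterile gonads (beside 2.85% of all genes), and 0 fell (beside 0.434%, and 0 at an unadjusted p under 0.05, with 0 calls by DESeq2 too). *twk-31* had 27, 113 and 27 counts in F4 sterile and 11, 25 and 7 counts in F4 fertile samples, a log2 fold change of 1.70 (SE 0.38, edgeR adjusted p = 0.0324). Each replicate number went the same way, since F4 sterile replicates 1 to 3 had 4.14, 12.3 and 5.64 CPM and F4 fertile replicates 1 to 3 had 1.97, 2.36 and 1.77 CPM. The call rested on single libraries. Without F4 sterile replicate 2 the log2 fold change was 1.08 and the edgeR adjusted p 0.183, and the adjusted p was between 0.0502 and 0.137 without any 1 F4 fertile replicate, F2 fertile replicate 1 or P0 replicate 3. Without F4 sterile replicate 1, 5 members rose (*acr-8*, *ser-1*, *twk-8*, *twk-31* and *twk-45*), of 22 tested, and in a fit of these 6 samples alone 0 rose. *ser-1* had a log2 fold change of 1.47 between the F4 groups (SE 0.46, edgeR adjusted p = 0.0915), and with the replicate number as a block it was 1.36 with an adjusted p of 0.0451. *lgc-40* had 1.07 (SE 0.45, edgeR adjusted p = 0.195), although its F4 sterile samples did not overlap with its F4 fertile samples.

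The untested members are described by raw counts and by overlap between groups. Of all 151 members, 32 had every F4 sterile sample above every P0 sample in CPM, beside 14.5% of all genes with a count and 19.6% of protein-coding genes with a count, while 2 had every F4 sterile sample below (*ser-3* and *twk-9*, beside 8.29% and 10.1%). Of those 32 genes, 23 were untested and 13 X-linked. For F2 fertile above P0 there were 19 members (beside 9.42% of all and 12.5% of protein-coding genes) and below it 2, *lgc-42* and *twk-9* (beside 4.29% and 5.21%). For F4 fertile above P0 there were 12 members (beside 10.2% and 13.9%) and below it 4, *ser-3*, *ser-5*, *ser-7* and *twk-24* (beside 7.47% and 9.21%). For F4 sterile above F4 fertile there were 18 members (beside 7.68% and 10.1%), and 0 had all F4 sterile samples below all F4 fertile samples (beside 3.04% and 3.76%). By group means, 70 of the 151 members were highest in F4 sterile gonads (46.4%, beside 39.6% of protein-coding genes with a count), and 69 were lowest in P0 (45.7%, beside 36.8%). At each step from P0 to F2 fertile, F4 fertile and F4 sterile gonads 20 were higher (13.2%, beside 2647 of the 18947 protein-coding genes). F4 sterile replicate 2 held more than 50% of the F4 sterile CPM of 92 members, and without it 52 members were highest in F4 sterile (beside 31.8% of protein-coding genes), 48 lowest in P0 (beside 32.5%) and 18 higher at each step (beside 12.9%).

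Among untested G protein-coupled receptors, the D1-like dopamine receptor *dop-4* had the most counts. They were 12, 3 and 3 in P0, 12, 12 and 6 in F2 fertile, 7, 13 and 8 in F4 fertile, and 4, 25 and 6 in F4 sterile samples, and the groups overlapped in CPM. The octopamine receptor *octr-1* had 2, 0 and 1 counts in P0, 1, 5 and 7 in F2 fertile, 4, 7 and 3 in F4 fertile, and 11, 29 and 7 in F4 sterile samples. Its F4 sterile samples were above all F4 fertile and all P0 samples, and it shares 57 bases with F14D12.1, a gene on the opposite strand that rose as well (log2 fold change 2.72, SE 0.32, edgeR adjusted p = 3.21e-05, F4 sterile against P0). The GABA-B receptor subunit *gbb-1* had 4, 1 and 0 counts in P0, 7, 15 and 3 in F2 fertile, 3, 11 and 1 in F4 fertile, and 9, 22 and 5 in F4 sterile samples. Its F4 sterile samples likewise lay above all F4 fertile and all P0 samples in CPM. *mgl-2*, a metabotropic glutamate receptor, had 5, 15 and 6 counts in F4 sterile and 6, 1 and 2 in P0 samples. The muscarinic receptor *gar-2* had 3, 7 and 1 in F4 sterile and 4, 1 and 2 in P0 samples. For *mgl-2* and *gar-2* the groups overlapped.

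The ligand-gated channels left untested included *glr-6*, a glutamate receptor subunit of the AMPA/kainate type, with 12, 39 and 6 counts in F4 sterile and 7, 3 and 2 in P0 samples. *acr-16*, the nicotine-sensitive acetylcholine receptor of body muscle, had 3, 1 and 3 counts in P0, 10, 12 and 9 in F2 fertile, 8, 7 and 5 in F4 fertile, and 6, 27 and 4 in F4 sterile samples. In both genes F4 sterile replicate 2 held most of the F4 sterile counts, and the F4 sterile samples still lay above the P0 samples in CPM. *lgc-30*, another Cys-loop channel, had 5, 24 and 7 counts in F4 sterile and 7, 0 and 1 in P0 samples, which overlapped. The NMDA-type subunit *nmr-2* had 2, 6 and 1 counts in F4 sterile and 4, 2 and 0 in P0 samples, overlapping as well.

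Among untested potassium channels, *twk-8* and *slo-1* had most of their counts in F4 sterile gonads. *twk-8* had 2, 1 and 0 counts in P0, 3, 5 and 0 in F2 fertile, 2, 5 and 0 in F4 fertile, and 3, 74 and 14 in F4 sterile samples, so that 74 of its 109 counts came from F4 sterile replicate 2. The ratio of summed counts per library total was 24.1 in F4 sterile over P0 gonads, with an exact 95% interval of 7.98 to 118.8 for counting error. It was 8.24 (2.38 to 43.9) without F4 sterile replicate 2 and 36.3 (6.35 to 1448) without P0 replicate 1. *slo-1*, the calcium-activated large-conductance channel, had 2, 0 and 0 counts in P0, 2, 2 and 1 in F2 fertile, 2, 10 and 1 in F4 fertile, and 12, 16 and 6 in F4 sterile samples, with a ratio of 13.5 (3.46 to 116) in F4 sterile over P0 gonads. Here the 3 F4 sterile samples were alike, at 1.84, 1.74 and 1.25 CPM. The A-type channel *shl-1* had 2, 15 and 1 counts in F4 sterile and 1, 0 and 1 in P0 samples, and the voltage-gated *kvs-1* had 1, 2 and 1 in F4 sterile and 1, 0 and 1 in P0 samples, both with overlap.

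Some of these genes were called by tests with a wider reach, and *acr-5*, *acr-8* and *lgc-39* are named for that, after their values were seen. In F4 sterile against P0 gonads DESeq2 added *acr-8*, *octr-1*, *slo-1* and *twk-8* to the 8 rising genes, and edgeR without a filter added these 4 with *acr-5* and *lgc-39*. For *twk-8* the DESeq2 log2 fold change was 4.24 (adjusted p = 0.00520), for *slo-1* 3.62 (adjusted p = 0.0255), for *octr-1* 3.40 (adjusted p = 0.0135) and for *acr-8* 3.27 (adjusted p = 0.0137). *twk-8* was also called between F4 sterile and F4 fertile gonads, by DESeq2 with a log2 fold change of 3.63 (adjusted p = 0.0283). The F4 groups overlapped in *twk-8*, with 0.460 CPM in F4 sterile replicate 1 and 0.472 CPM in F4 fertile replicate 2. *acr-8*, an acetylcholine receptor subunit, had 9, 22 and 10 counts in F4 sterile and 2, 0 and 1 in P0 samples, and shares 20 bases with ZC504.3 on the opposite strand, which rose too (log2 fold change 2.48, SE 0.23, edgeR adjusted p = 5.47e-06).

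The members whose profile over the 12 samples was most like that of *ser-1* were *lgc-40*, *slo-1* and *twk-31*. Pearson's r of log2(CPM + 1) was 0.946, 0.898 and 0.894 over the 12 samples, which share their libraries, and F4 sterile replicate 2 was the highest sample of *ser-1*, *lgc-40* and *twk-31* alike. These values are a description.

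Genes that work beside these receptors were followed with lists that hold no member, and their counts stand beside the 26.4% of all tested genes that rose and the 16.8% that fell in F4 sterile against P0 gonads. Of the tested X-linked genes 73.8% rose and 1.44% fell, and of the autosomal ones 20.5% rose and 18.8% fell. The list counts were not split by chromosome. Of 24 ligand-gated channel subunits with other names, 4 were tested and 3 rose in F4 sterile against P0 gonads, with 0 lower. They were *eat-2*, a nicotinic subunit of the pharynx (log2 fold change 2.44, SE 0.48, edgeR adjusted p = 0.00124), the glutamate-gated chloride channel gene *avr-14* (2.50, SE 0.63, adjusted p = 0.00621) and the GABA-A type receptor gene *unc-49* (1.48, SE 0.42, adjusted p = 0.0128), and 2 of the 4 rose without F4 sterile replicate 2. Of 10 receptor assembly genes found, 5 were tested and 2 rose, among them the acetylcholine receptor chaperone *ric-3* with 4.26 ± 0.930 CPM in F4 sterile and 0.472 ± 0.367 CPM in P0 gonads (SD, n = 3 each). The other was *nra-4* (0.79, SE 0.11, edgeR adjusted p = 0.000129), and 0 fell. Potassium channels and their subunits with other names gave 3 rising genes of 4 tested (*egl-2*, *unc-103* and *mps-2*) and 0 falling.

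Of 11 tested genes for synthesis, loading and clearance of transmitters 3 rose, a share near that of all tested genes, the vesicular glutamate transporter *vglu-2*, the serotonin transporter *mod-5* and the acetylcholinesterase *ace-1*, and 0 fell. The list of calcium channel and sodium leak channel genes gave 8 rising genes of 10 tested, led by *unc-2*, *nca-2* and *unc-68*. It gave 1 falling gene, the store-operated calcium sensor *stim-1*. Of 12 tested genes of synaptic vesicle release 9 rose and 0 fell, among them *unc-18* with a log2 fold change of 2.59 (SE 0.31, edgeR adjusted p = 3.58e-05), *syd-2*, *aex-3* and *unc-64*. Leaving out F4 sterile replicate 2 gave 6 rising release genes, 5 rising genes of the calcium and sodium leak channel list and 1 rising gene of transmitter handling. The rising release genes also numbered 6 without P0 replicate 2 or P0 replicate 3. The rising genes of the calcium and sodium leak channel list also numbered 5 without P0 replicate 1. Those of transmitter handling numbered 1 without F4 fertile replicate 3, P0 replicate 2 or P0 replicate 3. Neuronal markers rose with them, 3 of 4 tested (*unc-119*, *egl-3* and *egl-21*), with *unc-119* at 8.65 ± 0.879 CPM in F4 sterile and 1.34 ± 0.405 CPM in P0 gonads (SD, n = 3 each), and 2 of 4 rose without F4 sterile replicate 2 and 5 of 5 without F4 sterile replicate 1. Among markers of other cells, 1 of 9 tested muscle genes rose (*act-4*), 0 without F4 sterile replicate 2, P0 replicate 2 or P0 replicate 3 and 4 without F4 sterile replicate 1, and 0 fell. Of the 7 somatic gonad genes tested 4 rose and 2 fell, with 1 rising without F4 sterile replicate 2, 2 rising without P0 replicate 2 or 3, and 1 falling without F4 sterile replicate 1 or 3 or P0 replicate 1, and of the 6 intestinal genes tested 0 changed. Of the 10 germ line genes tested 8 fell and 1 rose, and of the 9 oocyte genes 5 fell and 0 rose. Sperm genes gave 1 rising (*fer-1*) and 1 falling (*spe-6*) of 3 tested, and hypodermis genes 1 falling (*bli-1*) and 0 rising of 3 tested. With any 1 library left out, 1 to 2 sperm genes rose and 0 to 1 fell, 0 to 1 hypodermis genes rose, 0 to 1 germ line genes rose, and 0 to 1 receptor assembly genes fell. The part of any of these cells in the receptor and channel results was not tested.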

How the data were processed

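RNA of dissected gonads was depleted of ribosomal RNA, made into libraries with a kit that does not mark strand, and sequenced, with 3 lineages in each of 4 groups. The authors aligned reads with TopHat2 and counted them per gene with HTSeq, and the deposited files used here hold these raw counts. Versions and the strand setting of the counter are not given in the sources used here. Gene names and positions come from the deposited table (WS220), and exon lengths and overlaps from the WBcel235 annotation. The deposited log2 fold changes and p-values of the authors' own comparisons and 12 columns of normalized values per sample were not used.

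Reads on no gene (8.23 to 14.4%, higher in every P0 than in every F4 sterile library) and ambiguous reads (1.76 to 2.24%) were left out. Counts were scaled by TMM, filtered with filterByExpr and tested over all 12 samples with the quasi-likelihood test of edgeR 4.0.16 in R 4.3.3 (prior count 2), with Benjamini-Hochberg adjustment over 8746 genes and 5 comparisons. Python 3.11.15 with numpy 2.4.6 and pandas 2.3.3 made the other values. The scripts were tested on simulated data. Alternatives were DESeq2 1.42.0, RLE size factors, no filter, the replicate number as a block, the library name prefix as a covariate, the 6 compared samples alone, other detection minima, thinning, and leaving out each library. The names of libraries hold a prefix (SSAK010, SSKK007 or SSAK006), and only the first 2 include P0 samples, so the differences of F4 sterile replicate 1 have no P0 library of the same prefix.

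The replicate number was taken as the lineage, since the study followed 3 lineages. The sample titles give a replicate number and name no lineage, so this is an assumption. Deviations from the group means had a mean correlation of 0.0953 over 18 same-numbered pairs (-0.142 to 0.607, 7 above 0.1), against -0.0477 over pairs of other numbers. The highest was that of F4 fertile and F4 sterile replicate 1, which also share a library prefix. These values do not show the pairing. Members named with values per sample were those with an adjusted p under 0.05 in any comparison, the 5 with the highest mean CPM, the 5 untested ones with the most counts and, for each family without any of these, its member with the most counts. Of each list up to 4 called genes were named, and likeness to the member with the smallest p was given for 3 members. Other tested members were named as well, to account for all 15. The members, lists and rules were chosen with earlier results of these data known. Intervals cover counting error only.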

Additional observations from a re-analysis of the deposited data

How the results depend on the processing

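No member that was called changed direction under the alternatives run. Of the values of tested members that were not called, 32 changed sign under one of them, all of a size up to 0.43 on the log2 scale, among them *twk-31* in F4 fertile against F2 fertile gonads, at 0.13 with the library prefix as a covariate and -0.14 without it. In F4 sterile against P0 gonads the 8 rising members became 12 with DESeq2, 14 without the filter on low counts and 7 with the 6 samples alone, and 6 to 15 when 1 library was left out, where the filter by its construction passes 16 to 30 members. With the replicate number as a block the rising members were 8 there, 2 in F2 fertile against P0, 5 in F4 fertile against P0 and 2 between the F4 groups, in place of 8, 1, 4 and 1, and the block changed no other call of a member. In F2 fertile against P0 gonads there were 2 without the filter, with the library prefix as a covariate and with the 6 samples alone, and 1 to 2 with 1 library left out. In F4 fertile against P0 gonads 2 rose with the 6 samples alone and 2 to 4 with 1 library left out, while 1 fell (*ser-3*) with DESeq2, with RLE size factors and with the 6 samples alone, and 0 to 1 with 1 library left out. Between F4 sterile and F4 fertile gonads 2 rose with DESeq2, 3 without the filter, 2 with the prefix, 0 with the 6 samples alone, and 0 to 5 with 1 library left out. The shares of all genes called under these alternatives were not taken, and the causes were not tested.

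Detected genes, in the order P0, F2 fertile, F4 fertile, F4 sterile, numbered 40, 67, 60 and 74 at a minimum of 1 count, 4, 8, 6 and 12 at 10 counts, and 59, 100, 93 and 106 when any sample sufficed, and thinning gave 21 in F2 fertile gonads. Detection and group means without F4 sterile replicate 2, count ratios and list counts without single libraries, and the share of protein-coding genes without overlap were added after seeing the data. Most members have few counts at this depth, and a difference that was not called is not shown to be absent.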
